A study of Mus musculus with 24 samples.

Results

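Stable gene-end H3K27ac sites are the acetylated stretches at the ends of protein-coding genes that were found in much the same place with and without induction of a hairpin against Spi1. A site was an H3K27ac peak of untreated cells that overlapped exactly 1 H3K27ac peak of doxycycline-treated cells, which in turn overlapped no other, with an overlap of at least 50% of both peaks, and that lay within 1 kb of an annotated end of a protein-coding gene on an assembled mm10 chromosome. This rule took 7172 of the 28902 untreated peaks, and the treated list held 23341 peaks. The cells are line #763, leukaemic erythroid cells from mouse bone marrow that carry a Spi1 transgene, overexpress SPI1 and grow with erythropoietin (EPO). All groups share that background. The untreated group received no doxycycline, and the treated group received it for 48 h to switch on a short hairpin RNA against Spi1. ChIP-seq peak lists of 4 groups were used, for H3K27ac and H3K4me1 with and without doxycycline, with 1 list per group. The labels speak of 3 biological replicates for all conditions. Each H3K27ac list joins the first 2 of them, and each H3K4me1 list comes from the first alone. No group is labelled as doxycycline without the hairpin, so effects of the drug and of lower SPI1 cannot be told apart, and all cells are of 1 line.

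Acetylation of lysine 27 of histone H3 (H3K27ac) marks active promoters and active enhancers. Monomethylation of lysine 4 (H3K4me1) marks enhancers, and at active promoters it typically lies on both sides of the start site while the start itself carries trimethylated lysine 4. Broadly expressed genes often start in CpG islands, stretches rich in the dinucleotide CG, and are read in most cell types. SPI1, also called PU.1, belongs to the ETS factors, is needed for myeloid and B cells and drives this leukaemia, and GATA1, KLF1 and TAL1 are the factors that lead red cell development.

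The sites were chosen by the H3K27ac peak positions of both lists, so their acetylation is described here and not tested, and "stable" speaks of position and not of height, which the H3K27ac lists do not hold. In bulk chromatin, fewer marked cells and less mark per cell cannot be told apart. With 1 list per group there is no replicate error and no test between conditions. The interval given after a share is the exact (Clopper-Pearson) 95% interval and holds the counting error over peaks or genes alone.

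The labelled cell type was checked against marker genes. All 10 erythroid markers examined had an H3K27ac peak within 1 kb of an end in at least 1 list, as did all 5 megakaryocyte markers, 1 of 7 myeloid, 1 of 5 B cell, 0 of 5 T cell and 0 of 5 stromal and endothelial markers. Stable sites lay at 4 of the erythroid markers: Klf1, Tal1, Epor and Tfrc. Alas2, Hba-a1, Hbb-bs and Slc4a1 had an end peak in the treated list alone, and Gata1 had end peaks in both lists that did not meet the rule. Spi1 itself held a site of 703 bp without and 753 bp with doxycycline, at chr2:91115049-91115751 beside the gene's right-hand end. All H3K27ac within 1 kb of the ends of Spi1 covered 1529 bp without and 753 bp with doxycycline. This says nothing of the hairpin's effect on Spi1 RNA, and RNA was not analysed here.

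Sequences of 8 promoters inside stable sites show the letters that the comparison of motifs below counts. They are RefSeq sequences, with positions on GRCm38.p6, of which mm10 is another name, from 250 bases before the annotated start to 30 bases after it, written 5′ to 3′ along the gene. The first 5 belong to genes of the basic cell machinery, which most often held a site, and for each motif the gene with the widest site was taken. Only the motifs for which a promoter was taken are in capitals, and matches of other motifs, such as GC boxes in Rpl27a and Srsf2, an SPI1-type match in Rpl13a and a GATA match in Pklr, are left in lower case or marked only where they overlap. Capitals mark, in Rpl13a (a protein of the large ribosomal subunit), GC boxes 189 and 37 bases before the start, CCAAT boxes 140 and 87 bases before it and an E-box 200 bases before it. In Rps18 (small subunit) they mark an ETS motif 158 bases before the start, in Rpl10a an NRF1 motif 4 bases before it, in Rpl27a a cyclic AMP response element (CRE) 97 bases before it, and in Srsf2, a splicing factor, a TATA box 29 bases before it.
Rpl13a, chr7:45128716-45128995, - strand: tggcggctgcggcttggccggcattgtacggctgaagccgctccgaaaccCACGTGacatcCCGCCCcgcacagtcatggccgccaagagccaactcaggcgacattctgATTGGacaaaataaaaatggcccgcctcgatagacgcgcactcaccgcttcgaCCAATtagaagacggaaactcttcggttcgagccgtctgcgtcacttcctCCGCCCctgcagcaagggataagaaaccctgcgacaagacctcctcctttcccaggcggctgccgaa
Rps18, chr17:33955636-33955915, - strand: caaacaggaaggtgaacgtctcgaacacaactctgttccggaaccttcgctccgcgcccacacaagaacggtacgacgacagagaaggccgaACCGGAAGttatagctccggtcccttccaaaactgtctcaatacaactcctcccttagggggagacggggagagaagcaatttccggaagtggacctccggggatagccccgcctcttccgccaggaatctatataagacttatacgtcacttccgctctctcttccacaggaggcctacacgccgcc
Rpl10a, chr17:28328315-28328594, + strand: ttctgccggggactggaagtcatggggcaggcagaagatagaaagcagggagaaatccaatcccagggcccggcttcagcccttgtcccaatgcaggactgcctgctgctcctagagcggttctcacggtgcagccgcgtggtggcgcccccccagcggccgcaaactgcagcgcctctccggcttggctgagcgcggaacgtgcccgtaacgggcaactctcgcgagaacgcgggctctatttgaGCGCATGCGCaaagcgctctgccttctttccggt
Rpl27a, chr7:109518945-109519224, + strand: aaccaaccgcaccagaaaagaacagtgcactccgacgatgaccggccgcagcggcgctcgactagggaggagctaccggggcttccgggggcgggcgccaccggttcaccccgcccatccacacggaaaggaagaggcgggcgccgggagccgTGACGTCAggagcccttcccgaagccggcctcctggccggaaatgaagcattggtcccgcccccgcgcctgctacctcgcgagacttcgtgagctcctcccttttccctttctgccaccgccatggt
Srsf2, chr11:116853065-116853344, - strand: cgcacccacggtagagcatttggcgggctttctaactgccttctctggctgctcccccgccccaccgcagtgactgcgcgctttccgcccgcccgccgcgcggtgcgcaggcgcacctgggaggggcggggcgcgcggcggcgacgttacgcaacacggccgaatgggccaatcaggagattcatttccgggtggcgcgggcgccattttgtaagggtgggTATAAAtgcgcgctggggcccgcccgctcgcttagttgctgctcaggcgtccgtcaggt

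The other 3 promoters belong to blood lineage genes and hold motifs of lineage factors. Capitals mark a GATA motif 205 bases before the start of Tal1, which encodes a helix-loop-helix factor of blood stem and red cells, a RUNX motif 4 bases after the start of Pklr, the pyruvate kinase of liver and red cells, and an SPI1-type motif 10 bases before the start of Pf4, a chemokine of platelets.
Tal1, chr4:115056176-115056455, + strand: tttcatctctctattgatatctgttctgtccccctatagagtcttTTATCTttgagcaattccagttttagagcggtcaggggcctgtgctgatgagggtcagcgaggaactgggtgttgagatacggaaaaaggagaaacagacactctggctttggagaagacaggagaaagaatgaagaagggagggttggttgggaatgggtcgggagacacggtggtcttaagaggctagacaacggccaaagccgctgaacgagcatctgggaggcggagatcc
Pklr, chr3:89135892-89136171, + strand: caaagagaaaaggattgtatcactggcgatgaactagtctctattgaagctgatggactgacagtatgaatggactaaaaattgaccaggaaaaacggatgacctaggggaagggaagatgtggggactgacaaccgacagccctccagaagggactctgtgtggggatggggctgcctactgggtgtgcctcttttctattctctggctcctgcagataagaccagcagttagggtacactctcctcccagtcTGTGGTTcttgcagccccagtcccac
Pf4, chr5:90772185-90772464, + strand: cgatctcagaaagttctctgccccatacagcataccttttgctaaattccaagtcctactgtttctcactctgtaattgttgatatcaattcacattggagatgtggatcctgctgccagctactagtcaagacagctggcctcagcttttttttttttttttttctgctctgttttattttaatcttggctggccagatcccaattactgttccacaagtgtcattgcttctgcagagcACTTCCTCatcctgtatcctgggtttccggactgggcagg

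Most acetylated gene ends kept their peak. Of the 10494 untreated peaks within 1 kb of a gene end, 7172 met the rule (68.3%), against 5365 of 18408 peaks away from gene ends (29.1%) and 43.4% of all untreated peaks. These shares are set by the rule itself. Of the other gene-end peaks, 2268 met several treated peaks or shared one, 320 met a single treated peak with less overlap, and 734 met none. The treated list held 342 gene-end peaks that met no untreated peak.

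The sites lay mainly at transcription starts. The gene table used gives no strand, so strand was taken from the RefSeq promoter table, which covers 17491 of 21883 protein-coding genes. Among 7460 gene ends of known strand at the sites, 6442 were 5' ends (86.4%, interval 85.6 to 87.1). The share was 57.0% (53.2 to 60.8) at gene-end peaks of the untreated list alone and 57.6% (51.9 to 63.2) at those of the treated list alone. A 5' end was present at 5667 of the 7172 sites, against 7972 of all 10494 untreated gene-end peaks, which include the sites. By peak, the sites were thus not far from gene-end peaks as a whole. Sites with 3' ends alone numbered 263, and those with ends of unknown strand alone 1177. A total of 8024 genes had a site at either end, 36.7% of all protein-coding genes, and 6232 genes of known strand had one at the 5' end (35.6%). Ends of 2 genes shared a site in 1425 cases and ends of 3 or more genes in 90, and 464 sites held a divergent pair of 5' ends.

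Genes of the X chromosome held sites less often than those of the autosomes in these lists: 227 of 966 (23.5%, 20.9 to 26.3) against 7797 of 20661 (37.7%, 37.1 to 38.4). Per 100 genes, the count of sites ran from 21.7 on chromosome X to 39.8 on chromosome 11. Of the 5 sites listed with most gene ends, 4 were histone gene clusters, and the other, at Wdr46, B3galt4, Rps18 and Vps52, held 6 ends. The site at H2bc13, H2ac13, H3c10 and H2bc14 on chromosome 13 held 8 gene ends and measured 8653 bp without and 8603 bp with doxycycline. Histone genes of this kind are transcribed during DNA synthesis, and 29 of 64 had a site. Another H3K27ac peak lay at an end of 31 and none at an end of 4, against 2366 and 11493 of all 21883 protein-coding genes.

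Which genes held a site differed widely between groups of genes. Across 11 lists of cell machinery genes, 412 of 545 genes had one (75.6%, 71.8 to 79.1), against 36.7% of all protein-coding genes. The 7 blood lineage lists had 55 of 195 (28.2%, 22.0 to 35.1). A gene without a site could still have another H3K27ac peak at an end, as 2366 of all 21883 genes did. This held for 24 of 51 red cell membrane, globin and haem genes and 7 of 20 erythroid transcription factors. The counts were 6 of 18 in megakaryocyte, 11 of 50 in myeloid, 4 of 23 in stem and progenitor, and 2 of 17 in each of the B cell and T cell lists. Among 1463 olfactory and vomeronasal receptor genes, which are silent outside sensory neurons, 3 had a site, and among 15 stromal and endothelial genes none did, which allows a share of up to 21.8%.

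**Figure D1:**
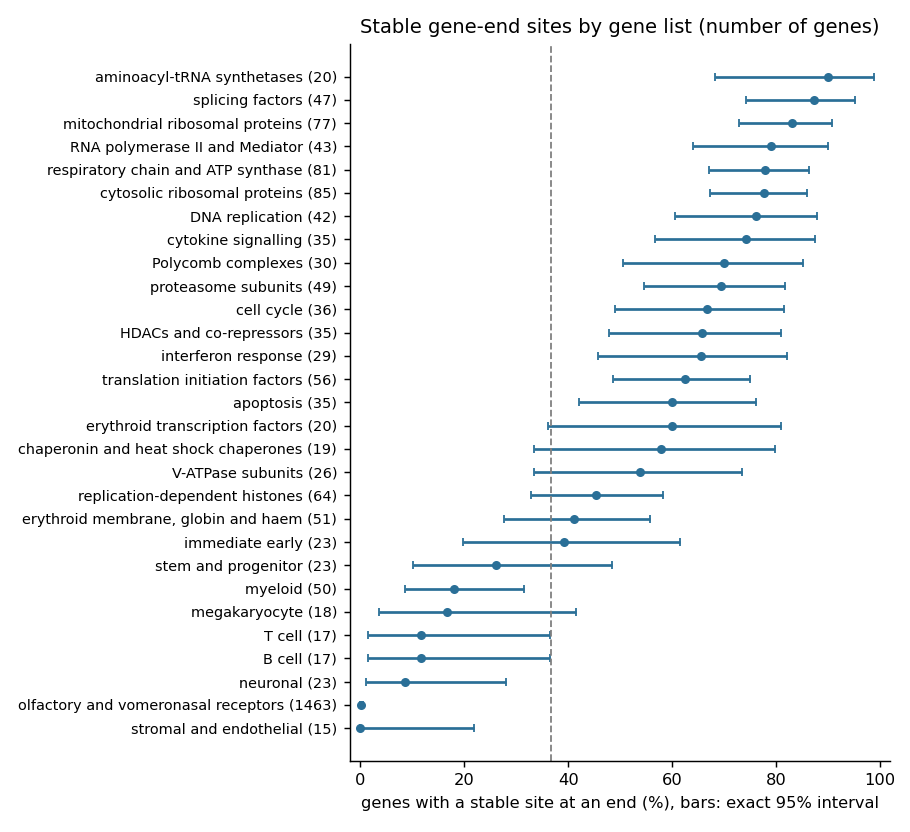
Share of genes of each list with a stable gene-end H3K27ac site at either end (horizontal axis, %); points are shares, bars exact 95% intervals, and the dashed line is the 36.7% of all protein-coding genes. The machinery lists sit to the right of the line and the receptor, neuronal and stromal lists to the left.

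Among machinery lists, aminoacyl-tRNA synthetases, which charge transfer RNAs, had a site at 18 of 20 genes, splicing factors at 41 of 47 and mitochondrial ribosomal proteins at 64 of 77. RNA polymerase II and Mediator subunits followed with 34 of 43, the respiratory chain and ATP synthase with 63 of 81, and cytosolic ribosomal proteins with 66 of 85. DNA replication genes had 32 of 42, proteasome subunits 34 of 49, translation initiation factors 35 of 56, chaperonin and heat shock chaperones 11 of 19, and subunits of the V-ATPase proton pump 14 of 26. Regulators were close to these: Polycomb complexes had 21 of 30, HDACs and co-repressors 23 of 35, cytokine signalling 26 of 35, interferon response 19 of 29, cell cycle 24 of 36 and apoptosis 21 of 35. Immediate early genes had 9 of 23.

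Blood lists were split. Erythroid transcription factors held a site at 12 of 20 genes and the list of red cell membrane, globin and haem genes at 21 of 51, and 9 genes of that list had an end peak of the treated list alone, against 353 of all 21883 protein-coding genes. Stem and progenitor genes had 6 of 23, myeloid genes 9 of 50, megakaryocyte genes 3 of 18, and B cell and T cell genes 2 of 17 each. Of the myeloid genes, 7 had an end peak of the untreated list alone, against 758 of all 21883 genes, and 2 had one of the treated list alone.

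Site widths were nearly the same in both lists. The median was 1803 bp without and 1803 bp with doxycycline, with 50% of sites between 1203 and 2553 bp in untreated cells, and the median log2 ratio of treated over untreated width was 0. With doxycycline, 3441 sites were wider (48.0%), against 50.3% of all 14693 peaks paired 1 to 1, 3219 were narrower (44.9%), against 44.0%, and 512 were equal. At least 1.5-fold wider were 285 sites (3.97%), against 14.3% of all pairs, and at least 1.5-fold narrower were 219 (3.05%), against 10.7%. The rule bounds a site's ratio between 0.5 and 2, and the pairs as a whole have no such bound. Both edges lay within 200 bp of their untreated place at 52.6% of the sites and at 43.6% of stable sites away from gene ends, which met the same overlap rule.

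The rule's edge is shown by single sites. Lamtor4, with 3503 bp without and 2053 bp with doxycycline, was just inside with an overlap of 50.04% of the wider peak, as were Twf2 (2603 and 1303 bp) and Pgap4 (2503 and 1253 bp). Just outside were Mex3d at 49.4%, a second peak at the other end of Rps15a at 49.3% and Pkm at 49.1%. Peaks on either side of this line were alike in overlap, and Rps15a counts as holding a site through its 5' end.

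The 5 widest sites were found at both single genes and gene clusters. The widest, at Vamp5 and Vamp8 on chromosome 6, which encode membrane fusion proteins, measured 15803 bp without and 15753 bp with doxycycline. Ppp1r9b had 14653 and 14053 bp, Aqp9, a water and glycerol channel, 13853 and 13403 bp, and the site at Tmem91, B9d2 and Tgfb1 12853 and 12003 bp. The histone site at H1f5 measured 14653 and 15153 bp. Width ratios were furthest from 1 at Twf2 and Pgap4, named above, and next at sites below the median width: Etfbkmt had 1153 and 2303 bp, Elovl3 703 and 1403 bp and the copper transporter gene Atp7a 703 and 1403 bp, whereas Crygn had 1603 and 803 bp and Rgs19 1503 and 753 bp.

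Relative to the gene's direction, 4742 sites could be oriented, those whose 5' ends lay on 1 strand with no end of unknown strand. They reached a median of 574 bp upstream of the 5' end without and 602 bp with doxycycline, and 1156 and 1150.5 bp downstream. The downstream reach was the longer at 3856 sites (81.3%) in the untreated list and 3851 (81.2%) in the treated list. The upstream edge lay further out with doxycycline at 2287 sites and further in at 1704, while for the downstream edge the counts were 2121 and 2037. The same counts over other H3K27ac peaks are not given here, and peak starts lie on a grid of 50 bp.

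Sites of cytosolic ribosomal protein genes were mostly narrower in the treated list. Of 69 such sites, 58 were narrower, 8 wider and 3 equal (narrower share 84.1%, 73.3 to 91.8), against 44.0% of all pairs that were narrower and 50.3% that were wider. The median width was 3303 bp without and 3003 bp with doxycycline. These are wide sites, and among sites with a mean width of at least 3000 bp 53.8% were narrower (50.9 to 56.7). In the other 10 machinery lists together, 184 of 382 sites were narrower and 178 wider. Single lists differed in direction. Mitochondrial ribosomal protein sites were narrower at 42 of 70 and wider at 23, and RNA polymerase II and Mediator sites narrower at 23 of 39 and wider at 16. Proteasome sites were narrower at 12 of 35 and wider at 20, and splicing factor sites narrower at 17 of 44 and wider at 24. Ribosomal protein genes have many processed pseudogenes, and how reads that map to several places were treated is not given in the sources used here.

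Single ribosomal protein sites show how large these differences were. The widest, at Rpl13a on chromosome 7, measured 9103 bp without and 8253 bp with doxycycline. Rps24 had 3753 and 2103 bp, Rps15 3153 and 2103 bp, Rps26 2403 and 1653 bp and Rpl3 6653 and 5403 bp. The Rpl13a site also lies within 1 kb of an end of Flt3l, which encodes a cytokine. Among the 8 that were wider, Rps10 had 3053 and 3153 bp, Rpl27a 4803 and 4853 bp and the 5' site of Rplp0 2953 and 3503 bp, beside a site at its 3' end with 2903 and 2153 bp.

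Erythroid sites were more often wider. In both erythroid lists together, 24 of 36 sites were wider with doxycycline and 10 narrower (wider share 66.7%, with an interval that includes the 50.3% of all pairs). Wider sites included Cpox, a haem synthesis enzyme (5303 and 6653 bp), Tmod1, a cap of red cell actin (3803 and 4753 bp), Epb41, protein 4.1 of the membrane skeleton (6453 and 7653 bp), and Kel, a blood group antigen (4303 and 5153 bp). Pklr had 5203 and 6303 bp, and Tfrc, the transferrin receptor, 6453 and 7503 bp.

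Among the erythroid factors, Tal1 had 8403 and 9603 bp, Klf1 4103 and 4553 bp, Bach1, a haem-sensing repressor, 3603 and 4403 bp, and Zfpm1, the GATA1 partner FOG1, 11353 and 12053 bp. Narrower were Myb, a progenitor factor (4503 and 3653 bp), Lyl1 (7053 and 6153 bp), Nfe2l1 (3353 and 2703 bp) and Zbtb7a (3653 and 3453 bp). The erythropoietin receptor gene Epor had 3803 and 4003 bp and the embryonic globin gene Hbb-bh1 1403 and 1003 bp. The 3' site of Slc25a38 is the one that also serves Rpsa, so it counts among both the erythroid and the ribosomal protein sites.

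Stem and progenitor sites were narrower in 7 of 7 cases, against 44.0% of all pairs. Meis1, a homeobox factor of stem cells, had 2603 and 2303 bp at its 5' end and 2253 and 1253 bp at its 3' end, Hoxb4 1303 and 903 bp, Etv6 3453 and 2853 bp and Bmi1 3303 and 3103 bp. Of 9 myeloid sites 8 were narrower, against the same 44.0%. The other, that of Spi1, was wider (703 and 753 bp), though all H3K27ac within 1 kb of the ends of Spi1 covered 1529 and 753 bp. The differences of the 8 narrower sites were mostly small. Cebpb, a myeloid transcription factor, had 4953 and 4653 bp, the kinase gene Lyn 2953 and 2853 bp and Csf2ra, a receptor chain, 1853 and 1803 bp. Cd14, a monocyte receptor, had 853 and 503 bp. In the megakaryocyte list Pf4 had 1753 and 2903 bp and Itga2b, an integrin of platelets, 1703 and 2303 bp, whereas Gp1ba had 4353 and 4203 bp.

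Immediate early genes and interferon genes gave both directions. Nr4a1, an orphan nuclear receptor, had 803 and 1553 bp, Btg2 2253 and 3153 bp, Dusp1, a MAP kinase phosphatase, 2253 and 2953 bp and Fos 3003 and 3503 bp, while Fosl2 had 2453 and 1853 bp. Among the interferon response genes, Gbp2 had 953 and 503 bp, Gbp3 1003 and 753 bp and Ddx58, the RNA sensor RIG-I, 1503 and 853 bp, while Irf9 had 3053 and 3203 bp and Oas3 3403 and 3553 bp. Over that list 10 of 18 sites were narrower and 7 wider.

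**Figure D2:**
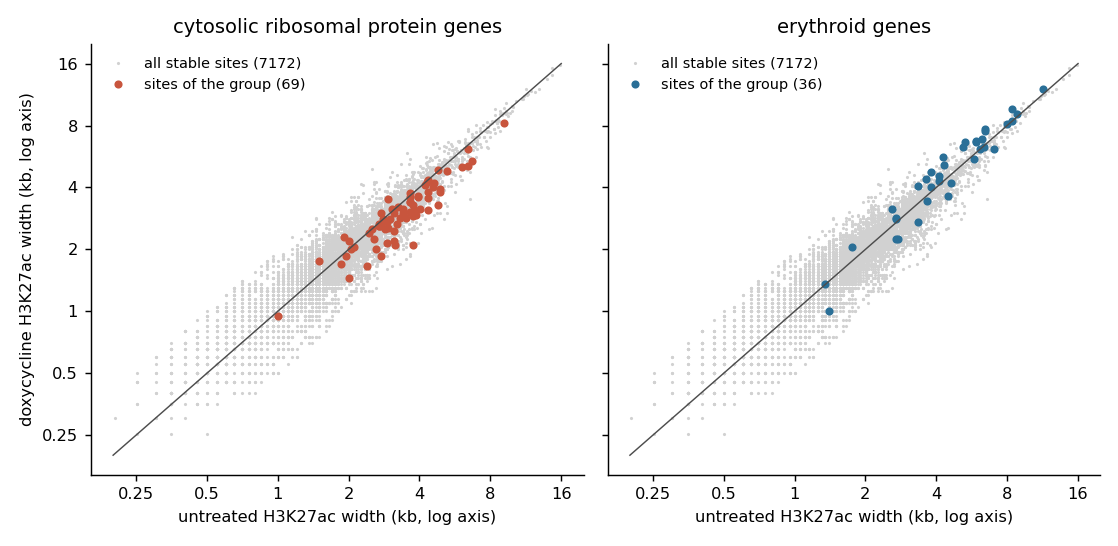
Width of each stable gene-end H3K27ac site in the doxycycline list (vertical, kb, log axis) against the untreated list (horizontal, kb, log axis); grey points are all 7172 sites, colored points the 69 sites of cytosolic ribosomal protein genes (left) and the 36 of both erythroid lists (right), and the line marks equal width. Of the ribosomal protein sites 58 lie below the line, and of the erythroid sites 24 lie above it.

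H3K4me1, which the rule did not use, touched nearly every site. It overlapped 7112 sites in both lists (99.2%), against 98.3% of all untreated H3K27ac peaks, and 16 sites in neither. Its place within the site differed between classes of peak. In untreated cells at least 1 bp of the central 200 bp held H3K4me1 at 3269 sites (45.6%, 44.4 to 46.7), against 81.7% of all untreated peaks, 90.6% of stable sites away from gene ends (89.8 to 91.4) and 97.3% of gene-end peaks of the untreated list alone. In the other gene-end peaks that met the treated list it was 75.6% (73.9 to 77.3). Gene-end peaks of the untreated list alone were narrow, with a median width of 453 bp against 1803 bp at the sites. The central 200 bp is thus a larger part of them. In the untreated list, sites with H3K4me1 on both flanks and a free centre numbered 3404 (47.5%) in gene-end sites and 414 (7.7%) in stable distal sites. In the treated list they numbered 2947 (41.1%) and 318 (5.9%).

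The share differed by kind of gene end. Sites with a 5' end had H3K4me1 at the centre in 43.5% of cases (42.2 to 44.8), those with 3' ends alone in 95.4% (92.2 to 97.6) and those with a divergent pair of 5' ends in 31.0% (26.8 to 35.5). It differed by site width as well, with 78.6% at sites under 1000 bp, 41.6% from 1000 to under 2000 bp and 29.3% from 2000 to under 3000 bp, and 47.2% at those of at least 3000 bp. In stable distal sites of the same widths the shares lay between 85.0% and 95.5%.

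**Figure D3:**
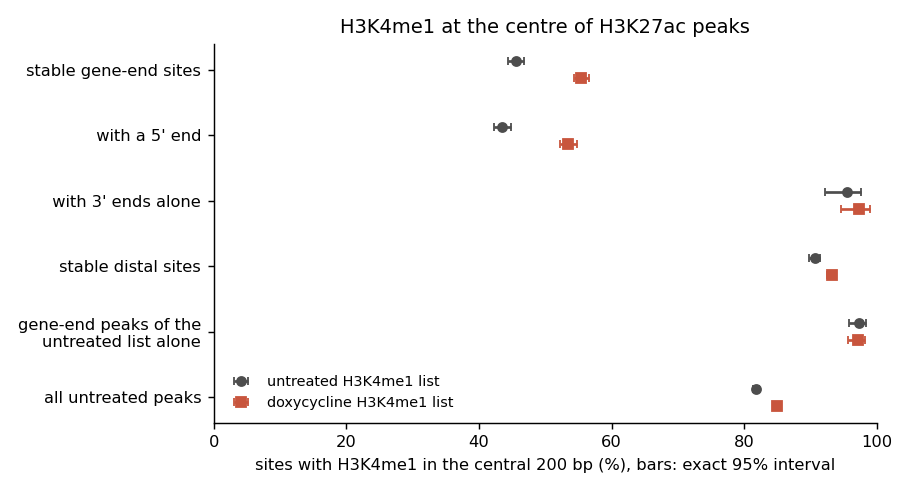
Share of H3K27ac peaks with H3K4me1 in the central 200 bp (horizontal axis, %) by class of peak, with bars for exact 95% intervals; circles stand for the untreated and squares for the doxycycline H3K4me1 list. Stable gene-end sites with a 5' end sit near the middle of the axis in both lists and every other class shown, apart from the stable gene-end sites as a whole, above 80%.

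With doxycycline the central 200 bp held H3K4me1 at 3977 sites (55.5%, 54.3 to 56.6), against 84.9% of all untreated peaks. Sites covered in the treated list alone numbered 920 (12.8%), against 4.99% of all untreated peaks, and those covered in the untreated list alone 212 (2.96%), against 1.84%. In stable distal sites the counts were 170 and 30 of 5365, with less room for a gain since 4863 were covered already. The H3K4me1 lists differ in extent, since the treated list covered 195 Mb and the untreated list 184 Mb, and the part of this in the difference at the centre was not tested. With each list limited to 101388 peaks, by the authors' score, the shares were 45.2% and 55.5%. That number is the whole treated list, so only the untreated list was cut. The treated share could not move, and this setting does not make the lists equal in extent.

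Within 2 kb of the site centre, H3K4me1 covered a median of 2653 bp without and 2904 bp with doxycycline. It was longer at 5349 sites (74.6%), against 52.7% of all untreated peaks, and shorter at 1337 (18.6%), against 26.7%. The median difference was 247 bp, against 50 bp over all untreated peaks, many of which were covered to the full 4000 bp in both lists. With treated lengths scaled to the untreated total, it was 63.0 bp. Differences of at least 1.5-fold were uncommon: 294 sites were longer by that much (4.10%, against 3.26%) and 21 shorter (0.293%, against 3.31%).

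The largest differences in H3K4me1 lay at single genes. The mark within 2 kb covered 1106 bp without and 3256 bp with doxycycline at Ctnnbl1, 753 and 2753 bp at Alyref2, 2005 and 3952 bp at Zfp64 and 2079 and 4000 bp at Vac14. At these 4 sites the centre was free in the untreated list and covered in the treated list. In the other direction Aars2, a mitochondrial tRNA synthetase gene, had 3726 and 1803 bp, Tcp11 4000 and 2456 bp, Bcar1 2604 and 1154 bp, Lpxn 3752 and 2353 bp and Uap1l1 3153 and 1803 bp, and the centre of each was covered in both lists.

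Around the 5' end of the 4742 oriented sites, H3K4me1 formed a shoulder on each side of a trough. In untreated cells it covered the 5' end itself at 1500 sites (31.6%, 30.3 to 33.0), against 20.3% of all 5' ends of known strand, the position 500 bp upstream at 83.2% and that 1500 bp downstream at 83.3%. With doxycycline the 5' end was covered at 1888 sites (39.8%, 38.4 to 41.2), against 23.3%, and the same flanking positions at 89.4% and 87.1%. H3K27ac by contrast covered the 5' end at 82.2% of sites without and 85.0% with doxycycline and was highest 300 bp downstream, at 93.6% and 94.1%.

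**Figure D4:**
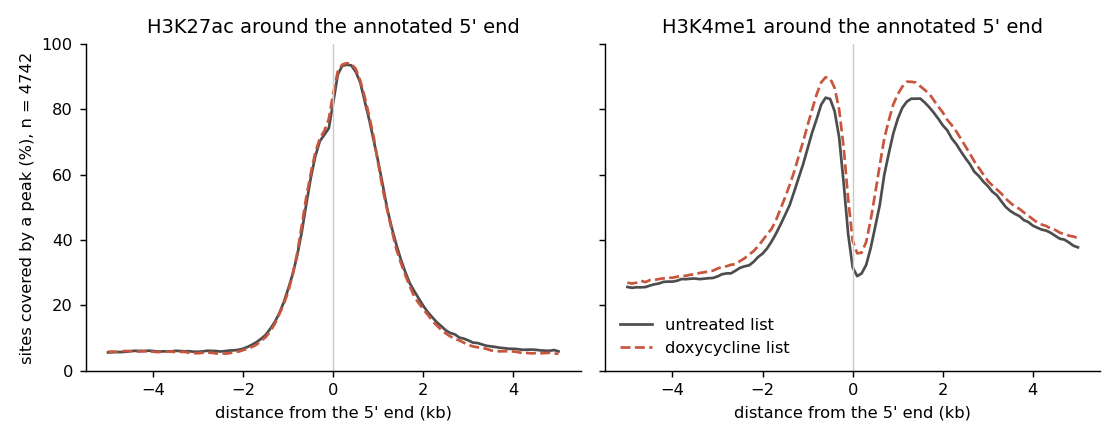
Share of the 4742 oriented stable gene-end sites covered by an H3K27ac peak (left) or an H3K4me1 peak (right) at each distance from the annotated 5' end (horizontal, kb, negative upstream; vertical, %); solid lines are the untreated and dashed lines the doxycycline lists. The H3K27ac curves nearly coincide, and H3K4me1 coverage at the 5' end is 31.6% in the untreated and 39.8% in the doxycycline list.

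The H3K4me1-free gap around the 5' end was shorter in the treated list. At 2656 sites the 5' end lay in such a gap, with an H3K4me1 peak within 5 kb on each side, in both lists. The gap was narrower with doxycycline at 2036 of them (76.7%), wider at 411 and equal at 209. Of all 5' ends of known strand with a gap in both lists 75.5% were narrower and 17.6% wider, so the share at the sites is near the background. The median gap was 946 bp without and 796 bp with doxycycline, and the median of the differences was -150 bp. A gap in the untreated list was closed in the treated list at 505 sites, and the reverse held at 133. The same counts over all 5' ends of known strand are not given here, so these are not shown to be particular to the sites. H3K4me1 covered 20.3% of all 5' ends of known strand in the untreated list and 23.3% in the treated list, those at the sites included.

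At 5' ends with another kind of H3K27ac peak, 771 of 1000 gaps were narrower (77.1%, 74.4 to 79.7), and at 5' ends with no H3K27ac peak within 1 kb 228 of 448 were (50.9%, 46.2 to 55.6). Gaps at 5' ends with no H3K27ac peak were far longer. Their untreated median was 3746 bp, against 1146 bp at other H3K27ac peaks, so these shares describe unlike gaps. Of the H3K4me1 peaks that bounded a gap at the sites and had a partner in the other list, 66.3% reached further into the gap with doxycycline and 15.2% less far. Their outer edges reached further out in 61.6% and less far in 31.8%. Both edges of these peaks thus lay further out in the treated list more often than further in. H3K4me1 peaks of the whole lists were wider as well, with a median of 903 bp untreated and 1153 bp treated. The same edge shares over all H3K4me1 peaks are not given here, so these are not shown to be particular to the gaps.

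Ribosomal protein sites had long gaps. In untreated cells their 5' end lay in a median gap of 1521 bp, against 946 bp over all sites, and with doxycycline in one of 1196 bp. The gap was narrower at 28 of 30 such sites, against 75.5% of all 5' ends with a gap, and wider at 2. At Rplp0 it measured 2546 bp without and 1546 bp with doxycycline, at Rps12 2646 and 1696 bp, at Rps10 2446 and 1546 bp and at Rpl10a 2096 and 1196 bp. The 5' end itself was covered at 3 of 34 sites in each list. At the centre of the site, which at these genes lies inside the transcribed part, H3K4me1 was present at 11 of 69 sites without (15.9%, 8.24 to 26.7) and at 32 with doxycycline (46.4%, 34.3 to 58.8), against 81.7% and 84.9% of all untreated peaks.

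In the other machinery lists the share of narrower gaps varied. Gaps of respiratory chain and ATP synthase genes were narrower at 27 of 29 sites (median 996 and 846 bp), of mitochondrial ribosomal proteins at 19 of 24 (946 and 696 bp), of proteasome subunits at 11 of 13 (1146 and 846 bp) and of aminoacyl-tRNA synthetases at 6 of 7 (1196 and 846 bp). The counts were 13 of 18 for RNA polymerase II and Mediator, 12 of 18 for splicing factors, 14 of 22 for translation initiation factors, 10 of 13 for DNA replication, 4 of 4 for chaperones and 3 of 4 for the V-ATPase. In the 10 machinery lists without cytosolic ribosomal proteins together it was 119 of 152 (78.3%, 70.9 to 84.6), near the 75.5% of all 5' ends with a gap. In cell cycle genes 8 of 15 were narrower.

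Erythroid and immediate early sites had few gaps to compare. In red cell membrane, globin and haem genes, 9 of 13 oriented sites had a covered 5' end in untreated cells, and the 3 with a gap in both lists, Cpox (2096 and 2296 bp), Ermap (746 and 996 bp) and Tfrc (1296 and 1996 bp), were wider with doxycycline. Klf1 had 1446 and 1496 bp, and 4 other erythroid factor genes with a gap in both lists had narrower ones, among them Myb (2746 and 2396 bp) and Bach1 (1446 and 1096 bp). Of the 11 immediate early sites all had H3K4me1 at the centre in both lists, against 81.7% and 84.9% of all untreated peaks, and the 2 with a gap in both, at Btg2 (296 and 746 bp) and Dusp1 (346 and 396 bp), were wider with doxycycline. These counts are too small to set against the background.

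Some sites had less H3K4me1 nearby in the treated list. At Tfrc it covered 2726 bp without and 2026 bp with doxycycline within 2 kb and at Tmod1 4000 and 3153 bp, both sites whose H3K27ac peak was wider in the treated list. At Cdk6, a cell cycle kinase gene with an H3K27ac site of 6353 and 4853 bp, it covered 880 and 477 bp. Spi1 went the other way, with H3K4me1 over 2105 bp without and 2803 bp with doxycycline.

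Promoters inside the sites were rich in CpG. Of RefSeq promoters of 300 bases, 5688 lay wholly inside a site, and genes with several listed starts count more than once. The ratio of observed to expected CpG (the number of CG pairs times the length, over the product of the numbers of C and G) had a median of 0.833, against 0.567 over all 21262 promoters of protein-coding genes and 0.268 over 11502 promoters that touched no H3K27ac peak. A ratio of at least 0.6 was found in 85.1% (84.1 to 86.0), 47.7% and 20.4% of them. Inside gene-end peaks of the untreated list alone it was 11 of 44 promoters (13.2 to 40.3%), and inside those of the treated list alone 25 of 44 (56.8%, 41.0 to 71.7). Few promoters fit wholly inside such peaks, of which the untreated list alone had 734, with a median width of 453 bp, and the treated list alone 342. These promoters are therefore a small selected part. Of the promoters printed above, Srsf2 had a ratio of 1.08, Rps18 1.02, Tal1 0.647, Pf4 0.217 and Pklr 0.158.

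**Figure D5:**
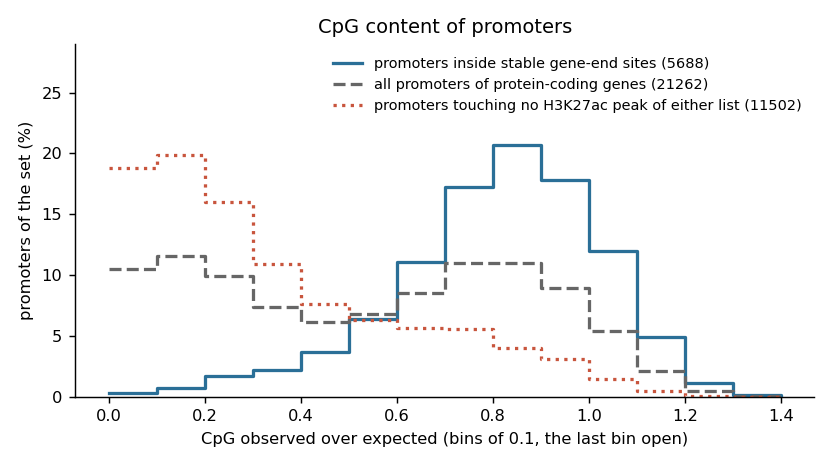
Distribution of the observed over expected CpG ratio (horizontal, bins of 0.1) of promoters inside stable gene-end sites, of all promoters and of promoters that touched no H3K27ac peak (vertical, % of each set). The first set has its median at 0.833 and the last at 0.268.

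H3K4me1 at the centre was rarer at sites with CpG-richer promoters. In untreated cells it was present at 70.7% of sites whose promoter had a ratio under 0.4 (64.0 to 76.8), 49.7% at 0.4 to 0.6, 38.7% at 0.6 to 0.8, 29.7% at 0.8 to 1.0 and 21.9% at 1.0 or more (19.1 to 25.1). With doxycycline the shares were 83.2%, 62.7%, 48.3%, 40.0% and 27.3%, higher in each class. Sites with CpG-rich promoters were also wider, with a median of 2303 bp at a ratio of 1.0 or more and 1903 bp at 0.4 to 0.6, though that of sites under 0.4 was 2078 bp. The median log2 width ratio was 0 in the 4 upper classes and -0.03 under 0.4.

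Most motifs of general promoter factors had higher shares in these promoters than over all promoters, while the CCAAT box, the TATA box, the RUNX motif and the GATA motif had lower ones and the SPI1-type and KLF1-type motifs were near the share of all promoters. Each motif was searched by its exact letters on both strands. The GC box GGGCGG, bound by SP family factors, was in 69.6% of promoters inside sites and 46.2% of all. The ETS motif ACCGGAAG was in 6.96% and 3.01%, the NRF1 motif, marked in Rpl10a above, in 2.92% and 1.33%, the YY1 motif AAGATGGCG in 4.27% and 1.83%, the CRE TGACGTCA in 4.03% and 2.23% and the E-box CACGTG in 11.4% and 7.84%. The CCAAT box CCAAT was in 34.8% and 38.2% and the TATA box TATAAA in 5.38% and 12.6%.

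Among lineage motifs, the SPI1-type motif GAGGAAGT was in 2.81% of promoters inside sites (2.40 to 3.28) and 3.13% of all, the GATA motif AGATAA in 5.20% and 9.65%, the KLF1-type motif CCACACCC in 3.76% and 3.63% and the RUNX motif TGTGGTT in 3.09% and 4.71%. The ETS and SPI1-type letters share the core GGAAG but no match of either is a match of the other. Promoters inside sites had a median GC content of 62.7% against 56.3% over all, and its part in these shares was not tested. The median position of matches relative to the start was -26 bases for the ETS motif, -42.5 for the CRE and -151.5 for the GATA motif. A match of letters is not a bound site.

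Fewer of the sites had H3K27ac neighbours than stable sites away from gene ends. Another untreated H3K27ac peak lay within 5 kb of 2701 sites (37.7%, 36.5 to 38.8), against 56.6% of stable distal sites (55.2 to 57.9) and 63.2% of all untreated peaks. A neighbour found in the untreated list alone lay within 5 kb of 1183 sites (16.5%, 15.6 to 17.4), against 23.7% of stable distal sites and 25.4% of all untreated peaks, and one of the treated list alone near 441 (6.15%, 5.60 to 6.73), against 14.6% and 11.1%. At Sos1, an adaptor of growth factor signalling with a site of 5953 and 5853 bp, 3 such untreated-alone neighbours were present, at Cdk6 2 and at Eif4a2 2. At Bbc3, the apoptosis gene PUMA with a site of 6253 and 6603 bp, 2 neighbours of the treated list alone were present.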

How the data were processed

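Peak positions were taken as the authors deposited them. Per the submitters' processing notes, the tools were BWA and bcl2fastq 2.17.1.14, on mm10. Which peak caller and thresholds were used, and how the 2 H3K27ac replicates were joined, is not given in the sources used here. In the deposited H3K27ac lists each peak has a position and a width in bp. The deposited H3K4me1 lists also hold the authors' score, on an unstated scale, which followed peak width (Spearman rho 0.983 and 0.984 across peaks) and was used for ranks inside 1 list alone. Starts lie on a grid of 50 bp, and both coordinates of a peak were counted as part of it, from base 1. The files hold no read counts, the depth of each library is unknown, and lengths depend on how much each list calls. Input, SPI1, RNA polymerase II, H3K27me3, entinostat and DMSO samples were not analysed here.

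Pairs of peaks, covered bp, gaps and motif matches were obtained in Python 3.11.15 (pandas 2.3.3, numpy 2.4.6, scipy 1.17.1), drawn with matplotlib 3.10.9, and tested on simulated lists and against bedtools 2.31.1. Gene ends came from a RefSeq table on GRCm38.p6, which holds 21883 protein-coding genes on assembled chromosomes; strand came from the promoter table. The members, gene lists and motifs were chosen with earlier results of these data known. Named genes were the 2 with the widest site of each list, the extremes of width ratio and H3K4me1 difference, those with most gene ends, those beside the 50% limit and 10 check genes; other genes named were chosen after their values were seen, and some that the rule takes are not reported here. The symbol Ahsp had no match. Alternatives were other overlaps, windows, peak sets and scalings.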

Additional observations from a re-analysis of the deposited data

How the results depend on the processing

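Peak lists were the only data, so no read depth, replicate error or p-value stands behind any share, and leaving out a replicate was not possible because the H3K27ac lists combine replicates and the H3K4me1 lists hold 1. No paired analysis was possible because each group has 1 list and no result comes from a test. The number of sites stayed within 1.5 times of 7172 in all 9 alternatives. The share of untreated gene-end peaks that met the rule was 68.3%, and 48.8% with an overlap of 80%, 71.4% with any 1-to-1 overlap, 70.5% and 63.4% with windows of 500 bp and 2 kb, 71.1% with 5' ends alone, 75.3% in the wider 50% of each list, 69.7% with peaks of at least 200 bp and 86.4% with peaks within 1 kb merged. The median log2 width ratio moved from 0 to 0.0291 in the wider 50% alone. The share of sites with H3K4me1 in both lists was 99.8% in the wider 50%, 99.4% after merging, 95.6% in the better-scored 50% of H3K4me1 peaks and 65.2% when at least 50% of the site had to be covered. H3K4me1 at the centre in untreated cells was 40.4% with an overlap of 80%, 47.5% with any 1-to-1 overlap, 47.4% with a window of 2 kb, 43.5% with 5' ends alone, 37.6% in the wider 50% and 43.2% with the better-scored H3K4me1 peaks, for which the treated share was 53.0%. The median H3K4me1 difference of 247 bp was 202 bp after merging, 200 bp with the better-scored peaks, 400 bp within 5 kb and 63.0 bp after scaling; the last follows from the larger treated total. The share of narrower gaps, 76.7%, was 74.97% with the better-scored peaks. The median CpG ratio was 0.819 for promoters overlapping a site by 1 bp. No value changed sign. Of 24 motif shares under alternatives 23 stayed within their interval, the exception being the CCAAT box at 36.8%. The 8 values of ribosomal protein sites did so as well. With H3K4me1 lists limited to equal peak numbers the treated list stayed whole, so treated shares at the centre could not move. Alternatives for ribosomal protein sites, for the treated share at the centre and for gaps were chosen after seeing the data. Of 28 list counts taken at 5' ends of known strand 22 stayed within 1.5 times. The cause of the other shifts was not tested.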
